A study of Arabidopsis thaliana with 28 samples.

Results

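HSA32, Hop2, Hop3 and Hsp70-2 are Arabidopsis thaliana genes of the heat shock protein network. Each was represented by the probe set that the platform annotation gives to its locus alone: 254414_at for HSA32 (AT4G21320), 262691_at for Hop2 (AT1G62740), 254839_at for Hop3 (AT4G12400) and 250994_at for Hsp70-2 (AT5G02490). They are 4 of the 13286 genes that the annotation names alone on at least 1 probe set, on an array of 22810 probe sets. No probe set that names several genes held any of them. All 4 passed the filter on low values, a log2 signal above 4 in at least 2 arrays, which kept 15916 probe sets.

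Hsp70 proteins bind unfolded stretches of other proteins, with J-domain proteins delivering the substrates. Hop, the Hsp70-Hsp90 organising protein, is a co-chaperone that holds Hsp70 and Hsp90 together so that a client protein can pass between them. HSA32 is a plant heat stress protein that is needed to keep acquired thermotolerance during a long recovery after a first heat treatment. Many heat-induced chaperone genes are targets of heat stress transcription factors, and HSFC1 is the class C member of that family in Arabidopsis.

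Single-colour expression arrays measured total RNA from the whole aerial part of seedlings grown for 12 days at 22°C on sterile agar without sucrose, in constant light of about 100 µmol m-2 s-1. The background of every wild-type group was Col-0. Plants overexpressing 1 transcription factor each and kept at 22°C made up 11 groups: HSFC1 (AT3G24520), the cytokinin response factors CRF2 (AT4G23750) and CRF3 (AT5G53290), the zinc finger proteins CZF1 (AT2G40140), ZAT10 (AT1G27730) and ZF (AT4G29190), the AP2-domain proteins DEAR1 (AT3G50260), ERF5 (AT5G47230) and RAV1 (AT1G13260), and the MYB proteins MYB44 (AT5G67300) and MYB73 (AT4G37260). For these 2 groups the labels disagree, since the array titles give MYB4 and MYB7; the group names here follow the locus numbers. Their reference was a Col-0 group at 22°C, called the lines' control here. A separate pair of Col-0 groups held plants moved to 4°C for 24 h under dimmer light of about 30 µmol m-2 s-1 (cold wild type) and plants left at 22°C (warm wild type), so low temperature and dim light cannot be told apart. The labels state neither the promoter of the transgenes nor the number of independent lines behind a group. Each of the 14 groups had 2 arrays, labelled as biological replicates with no further detail, so p-values measure the spread between these arrays, pooled over all groups by limma with 14 residual degrees of freedom.

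Array medians fell into separate ranges, 5.77 to 5.84 in the 6 arrays of cold wild type, warm wild type and CZF1, and 5.33 to 5.48 in the other 22 arrays. For CZF1 minus the lines' control, a comparison across these ranges, the median change over all tested probe sets was 0.43. In it 5164 probe sets were called higher and 613 lower. The median was -0.025 both for HSFC1 minus the lines' control and for cold minus warm wild type. The 3′ minus 5′ signal of the GAPDH control probe sets, a sign of RNA or amplification quality, was 1.63 and 1.78 in HSFC1, against 0.75 and 0.91 in the lines' control. HSFC1 was not the highest group, since CRF3 read 2.04 and 1.81. The same difference for the Ubq control probe sets was 1.66 and 1.71 in HSFC1, against 1.27 and 1.20 in the lines' control. For Actin it was 5.54 and 5.59, against 5.42 and 5.40. The part of these differences in the changes below was not tested. RCA (Rubisco activase), the 1 leaf marker of 9 that the annotation names, was at 13.18 to 14.24 in all 28 arrays and was lower in cold (log2 change -0.64 ± 0.21, SE, limma adjusted p = 0.0263), a call lost in all 4 fits without 1 array. The 2 root hair markers named, of 12 root markers, were at 3.12 to 6.42 (EXPA7) and 3.96 to 6.07 (EXPA18). The HSFC1 transgene has no probe set named for it, so overexpression of HSFC1 was not checked. The signals come from whole tissue, in which fewer cells with a transcript and less transcript per cell cannot be told apart.

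HSA32 stood near the bottom of the signal range in every group but HSFC1. The HSFC1 arrays read 8.69 and 8.43 on the log2 scale, against 3.88 and 4.08 in the lines' control. Over the 26 arrays outside HSFC1 the signal ran from 3.63 to 4.36 with a median of 4.08, so no array of another group came near those of HSFC1. Of the 18 arrays with a signal over 4, 16 lay outside HSFC1. The value 4.08 itself occurred in 7 arrays. A value repeated as often was found in 1865 of the tested probe sets (11.7%). HSA32 was 23.9-fold higher in HSFC1 than in the lines' control, a log2 change of 4.58 ± 0.19 (SE, limma adjusted p = 2.8e-12). The values used here carry no detection calls, so the signal outside HSFC1 is not shown to lie above background, and the fold is a ratio of deposited signals that may understate the change. In that comparison 11.8% of the probe sets tested passed the threshold of adjusted p under 0.05. In order of group means HSFC1 came first at 8.56 ± 0.18 (SD, n = 2), followed by ERF5 at 4.29 ± 0.10 and CRF2 at 4.19 ± 0.01. The gap between the lowest HSFC1 array and the highest ERF5 array was 4.07. ERF5 and CRF2 were 0.02 apart, and all neighbours further down overlapped, to ZAT10 at the bottom with 3.70 ± 0.06.

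**Figure D1:**
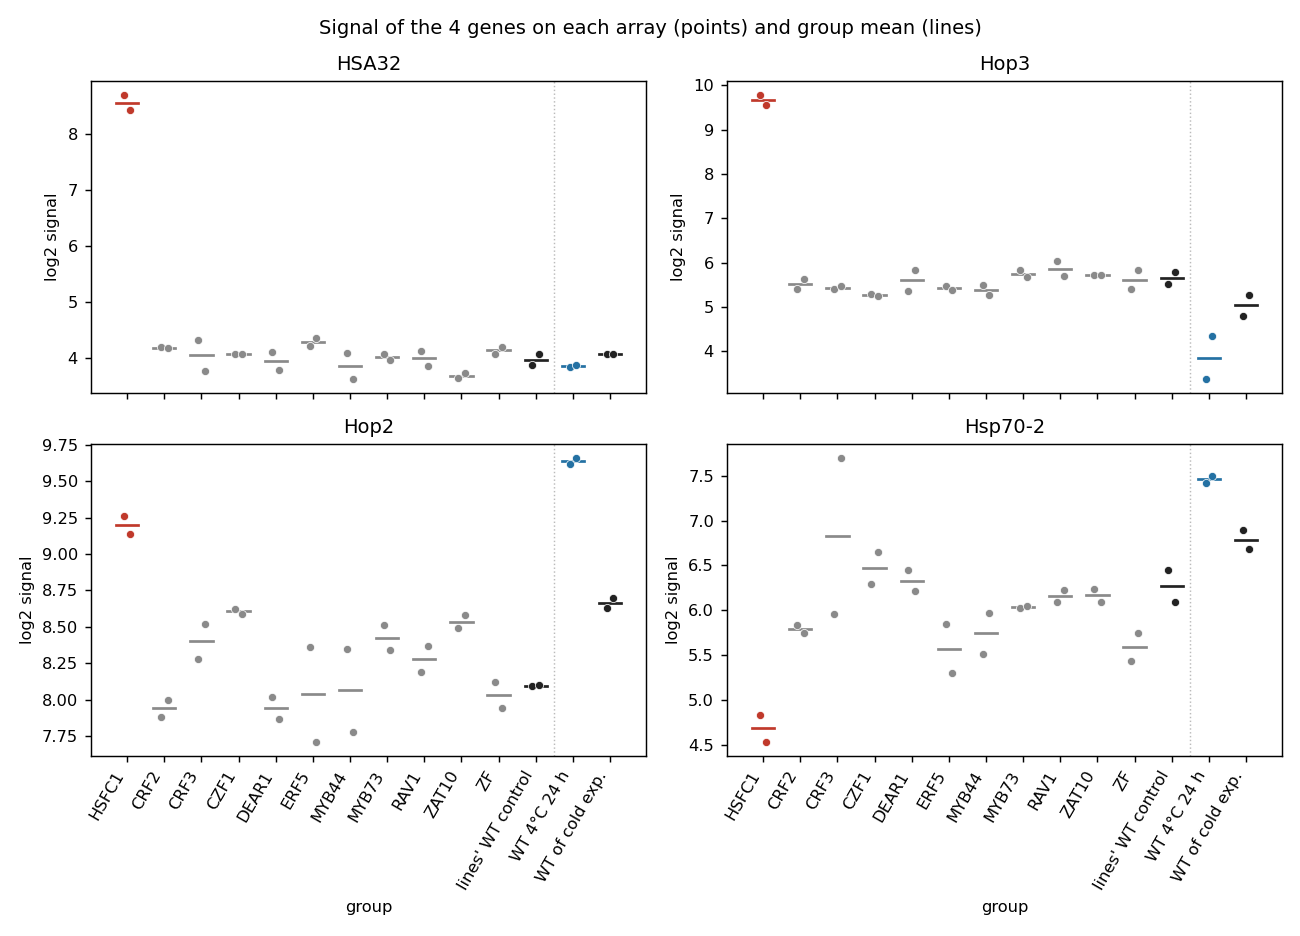
Log2 signal of HSA32, Hop3, Hop2 and Hsp70-2 in each of the 28 arrays, by group, with points for single arrays and a line at the mean of the 2 arrays. The HSFC1 arrays lie above all others for HSA32 and Hop3 and below all others for Hsp70-2, while the cold wild-type arrays are the highest for Hop2 and the lowest of all group means for Hop3.

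HSA32 did not pass the test in cold. The cold arrays read 3.84 and 3.89, against 4.08 in both warm wild-type arrays, a log2 change of -0.22 ± 0.19 (SE, limma adjusted p = 0.445). In that comparison 27.2% of the probe sets tested passed the threshold.

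Hop3 was the second of these genes with a large rise in HSFC1. Its signal was 9.78 and 9.57 in HSFC1, against 5.51 and 5.80 in the lines' control. The other 10 lines read 5.25 to 6.03 with a median of 5.48, so the HSFC1 arrays stood apart from every other line. Hop3 was 16.2-fold higher in HSFC1 than in the lines' control, with a log2 change of 4.02 ± 0.26 (SE, limma adjusted p = 2.26e-09) and the 49th highest change of that comparison. The gap between HSFC1 and the next group, RAV1 at 5.87 ± 0.23 (SD, n = 2), was 3.54, and the groups between RAV1 and warm wild type overlapped with their neighbours.

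Hop3 moved the other way in cold, where it had its lowest mean of all groups. The cold arrays read 3.37 and 4.34, against 4.79 and 5.28 in warm wild type, so both cold arrays were below both warm arrays, by 0.45 at the closest. The change was -1.18 ± 0.26 (SE, limma adjusted p = 0.00228), a 2.27-fold lower signal. The size depended on single arrays: it was -0.70 without the first cold array (adjusted p = 0.0733) and -1.67 without the second. The call was also lost when the spread was estimated from the compared groups alone (limma adjusted p = 0.108).

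Hop2 rose both in HSFC1 and in cold. Its signal was 9.26 and 9.14 in HSFC1, against 8.09 and 8.10 in the lines' control, a 2.15-fold higher signal (log2 change 1.11 ± 0.20, limma adjusted p = 0.00103). In cold it was 9.62 and 9.66, against 8.63 and 8.70 in warm wild type, a 1.97-fold higher signal (log2 change 0.98 ± 0.20, limma adjusted p = 0.0013). Neither pair of groups overlapped. Cold wild type had the highest group mean at 9.64 ± 0.03, followed by HSFC1 at 9.20 ± 0.08, warm wild type at 8.67 ± 0.05 and CZF1 at 8.61 ± 0.02 (SD, n = 2 each). The neighbours in that order were 0.36, 0.44 and 0.01 apart, so warm wild type and CZF1 did not differ beyond their spread. The order mixes groups from both ranges of array medians, so the gap between cold wild type and HSFC1 does not rank these groups. From ZAT10 at 8.54 ± 0.06 to CRF2 at 7.94 ± 0.08, neighbours overlapped or were at most 0.09 apart.

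The level of Hop2 also differed between the wild-type groups at 22°C, though not in every refit, which limits how exactly its change is known. The lines' control was lower than warm wild type (log2 difference -0.57 ± 0.20, SE, limma adjusted p = 0.0357), in a comparison across the ranges of array medians in which 33.9% of the probe sets tested passed. The call held in 6 of 12 refits, and the difference ran from -0.61 to -0.54 with 1 array left out. Centring the arrays on their medians left a difference of -0.19 (adjusted p = 0.587). With warm wild type as reference the change in HSFC1 was 0.54 (limma adjusted p = 0.0363), and with the lines' control as reference the change in cold was 1.55. Hop2 passed the test in the same direction with either reference. Both exchanges compare arrays across the ranges of array medians, so 0.54 and 1.55 are not free of the shift between them.

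Hop1 (AT1G12270), the other Hop gene, was called neither in HSFC1 nor in cold. Its signal was 8.53 and 8.23 in HSFC1, against 8.44 and 8.35 in the lines' control (log2 change -0.02 ± 0.26, limma adjusted p = 0.992). In cold it was 8.79 and 8.89, against 8.56 and 8.79 in warm wild type (0.17 ± 0.26, adjusted p = 0.688). The Hop genes thus gave a large rise, a rise of about 2-fold and no call in HSFC1, and a fall, a rise and no call in cold.

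Hsp70-2, a cytosolic Hsp70, was the one of these genes that fell in HSFC1. Its signal was 4.83 and 4.53 in HSFC1, against 6.45 and 6.09 in the lines' control, with no overlap. The signal was 3.01-fold lower in HSFC1 (log2 change -1.59 ± 0.35, limma adjusted p = 0.00543), the 265th lowest change of the comparison. Without the first array of the lines' control the change was -1.41 and did not pass (adjusted p = 0.0743). HSFC1 had the lowest group mean at 4.68 ± 0.21 (SD, n = 2), and its higher array lay 0.47 below the lowest array of ERF5, the next group at 5.57 ± 0.38.

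In cold Hsp70-2 had its highest group mean, but the change from warm wild type did not pass the test. The cold arrays read 7.42 and 7.50, against 6.89 and 6.68 in warm wild type, a change of 0.68 ± 0.35 (SE, limma adjusted p = 0.173). The groups did not overlap. The CRF3 arrays read 5.96 and 7.70, and their SD of 1.23 was the largest of any group. Without them the same change of 0.68 passed (limma adjusted p = 0.0167), as it did with the spread of the compared groups alone (adjusted p = 0.0294).

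The other cytosolic Hsp70 gene with a named probe set, AT3G09440, was not called in HSFC1 against the lines' control. It read 10.52 and 10.69 in HSFC1, against 10.98 and 11.08 in the lines' control (log2 change -0.43 ± 0.19, limma adjusted p = 0.159). The same change of -0.43 passed against the mean of the other lines (limma adjusted p = 0.0347). That mean includes CZF1, from the higher range of array medians. In cold AT3G09440 rose to 13.14 and 12.89, against 11.19 and 11.22 in warm wild type (1.81 ± 0.19, limma adjusted p = 1.27e-06). Whether transcripts of related Hsp70 genes bind the probes of Hsp70-2 was not tested.

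Outside HSFC1 no overexpression line passed the test for any of the 4 genes, although some calls were gained in refits. The changes against the lines' control in the other 10 lines ran from -0.29 to 0.31 for HSA32, from -0.39 to 0.21 for Hop3, from -0.16 to 0.51 for Hop2 and from -0.70 to 0.56 for Hsp70-2. The lowest limma adjusted p-values were 0.457, 0.253, 0.0534 and 0.273 for the genes in that order. For Hsp70-2 the SE of 0.35 fell to 0.21 without the CRF3 arrays. Hsp70-2 passed in 3 of 14 refits in ZF (-0.68) and in 2 of 14 in ERF5 (-0.70). It passed in 1 refit each in CRF2 and MYB44, and in none in CZF1, DEAR1, MYB73, RAV1 or ZAT10. The ERF5, CRF2 and MYB44 calls came with references that include warm wild type, across the ranges of array medians. The share of all tested probe sets called was 36.3% in CZF1, 8.6% in CRF3, 7.12% in ZF, 4.66% in ZAT10, 1.69% in MYB44, 0.251% in DEAR1, 0.0817% in ERF5, 0.00628% in RAV1, 0.0% in CRF2 and 0.0% in MYB73. CRF2 and MYB73 had 985 and 448 probe sets at an unadjusted p under 0.05 in limma. In lines with such low shares, a missing call for these genes says little about them.

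The change of 0.51 for Hop2 in CZF1 spanned the ranges of array medians. It passed without the CRF3 arrays (limma adjusted p = 0.0392) and with only the groups compared (limma adjusted p = 0.0234). Against warm wild type, whose medians match, Hop2 in CZF1 changed by -0.06 (limma adjusted p = 0.978), with 1.04% of the probe sets tested called. HSA32, Hop3 and Hsp70-2 changed by 0, 0.24 and -0.32 in that comparison, with adjusted p-values of 1, 0.862 and 0.869. After median centring, Hop3 in CZF1 minus the lines' control was -0.80 and passed (limma adjusted p = 0.0443). In CRF3, Hsp70-2 depended on 1 array: without the first CRF3 array its change was 1.43 and passed (limma adjusted p = 0.000189).

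**Figure D2:**
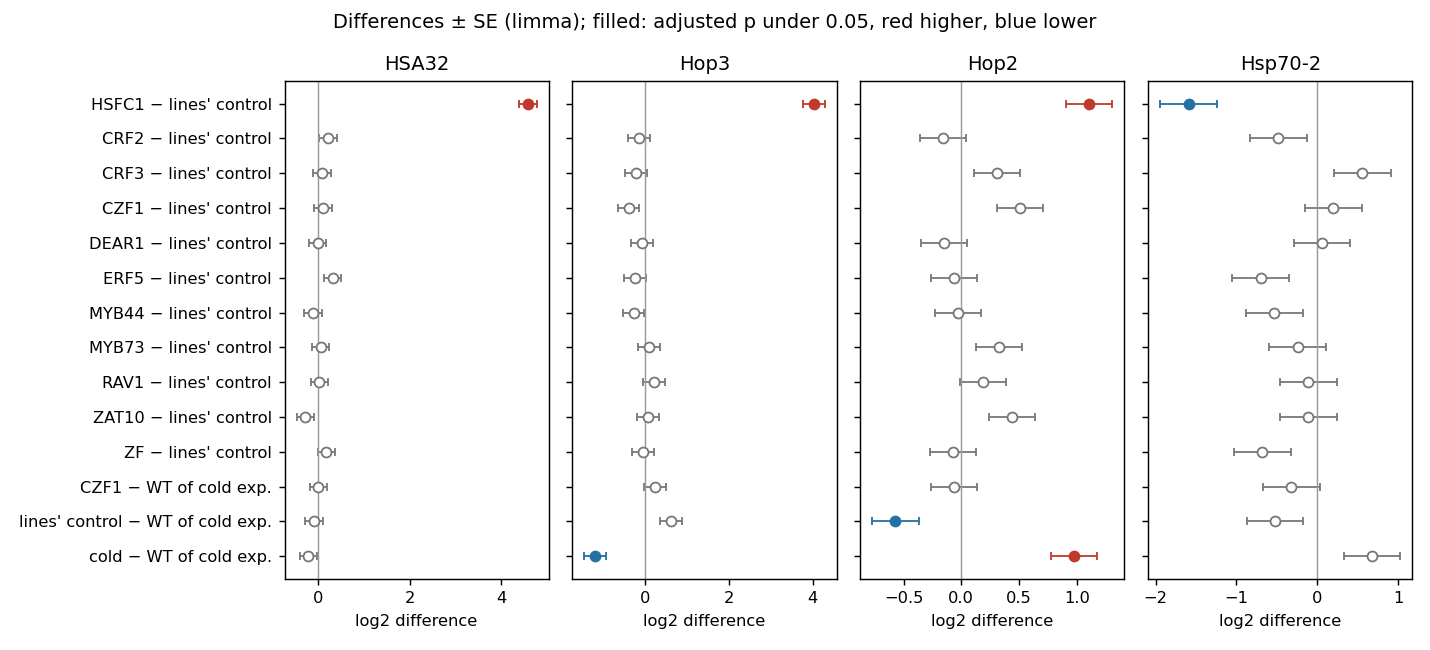
Log2 change (x axis) of HSA32, Hop3, Hop2 and Hsp70-2 in the 11 overexpression lines against the lines' control and in cold against warm wild type, with bars of 1 SE from limma. HSFC1 lies at 4.58 for HSA32 and 4.02 for Hop3, and no other line passed the test for any of these genes in the fit shown.

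HSFC1 was also set against the mean of the other 10 lines, which does not use the lines' control. That mean includes CZF1, from the higher range of array medians. The median change over all tested probe sets was -0.098, with 1307 called higher and 1962 lower. HSA32 was higher in HSFC1 by 4.53 ± 0.14 and Hop3 by 4.12 ± 0.19, with limma adjusted p-values of 1.36e-14 and 8.17e-12. Hop2 was higher by 0.97 ± 0.15 (limma adjusted p = 0.000105) and Hsp70-2 lower (-1.39 ± 0.26, limma adjusted p = 0.000898). In this comparison 20.5% of the probe sets tested passed. All 4 genes therefore differed between HSFC1 and the other lines by a direct test, in the direction found against the lines' control.

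The change in HSFC1 and the change in cold come from different arrays, and their difference was tested within the same fit. HSA32 changed more in HSFC1 than in cold by 4.80 ± 0.27 (limma adjusted p = 4.6e-10). For Hop3 the difference was 5.20 ± 0.37 (limma adjusted p = 1.04e-08), with a rise in HSFC1 and a fall in cold. For Hsp70-2 it was -2.27 ± 0.50 (limma adjusted p = 0.00387). Hop2 gave a difference of 0.13 ± 0.28 (adjusted p = 0.8), so its changes were not told apart by this test. Among all probe sets tested, 18.5% passed.

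**Figure D3:**
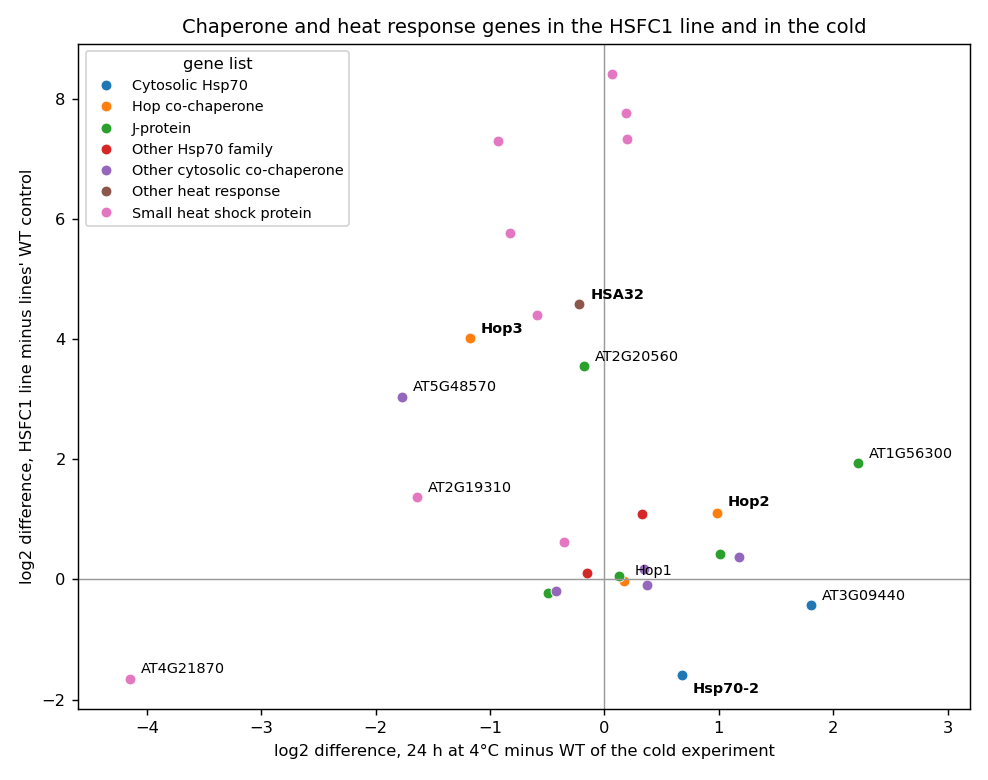
Log2 change in cold minus warm wild type (x axis) and in HSFC1 minus the lines' control (y axis) for the chaperone and heat response genes with a named probe set, with HSA32, Hop2, Hop3 and Hsp70-2 labelled. Hop2 is high on both axes (0.98 and 1.11), Hop3 is low in cold and high in HSFC1 (-1.18 and 4.02), and HSA32 is near 0 in cold.

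The surrounding chaperone network was described by 10 lists holding 93 genes, of which the annotation names 29, these 4 included. None of the 7 Hsp90 genes, 3 Hsp101 and ClpB genes or 21 heat stress transcription factor genes has a named probe set, so the Hsp90 side of the Hop complex was not analysed here. Of the 29 genes 27 passed the filter, 4 of them (AT1G53540, ATHSP22.0, AT5G51440 and AT1G52560) through the HSFC1 arrays alone. In HSFC1, 14 of the 27 were higher, 1 was lower and 12 were not called, with a median change of 1.09, where 11.8% of all probe sets tested were called and their median change was -0.025. The 4 that passed through HSFC1 alone had to be among the higher ones, so the count and the median are descriptions only. In cold, 5 were higher, 5 lower and 17 not called, with a median of 0.07, against 27.2% called and a median of -0.025 over all probe sets. Against the other lines, where 20.5% of all probe sets were called, 13 were higher and 3 lower in HSFC1.

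Among genes that work with Hsp70, the J-protein gene AT2G20560 read 8.78 and 7.47 in HSFC1, against 4.64 and 4.52 in the lines' control (log2 change 3.55 ± 0.36, limma adjusted p = 1.56e-06). In cold its change was -0.18 ± 0.36 (adjusted p = 0.763). Of the 5 J-protein genes tested, 2 were higher in HSFC1, beside 11.8% of all probe sets called in either direction. The second, AT1G56300, was not called against the other lines (0.66 ± 0.25, limma adjusted p = 0.0733). AT5G48570, an FKBP-type co-chaperone known as ROF2, read 9.76 and 8.77 in HSFC1, against 6.41 and 6.04 in the lines' control (3.04 ± 0.41, limma adjusted p = 4.67e-05). In cold it read 4.43 and 4.30, against 5.80 and 6.46 in warm wild type (-1.77 ± 0.41, limma adjusted p = 0.00322). AT5G48570 thus rose in HSFC1 and fell in cold, as Hop3 did, although its fall in cold missed the threshold without the second warm array (adjusted p = 0.0529).

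Of the 5 other cytosolic co-chaperone genes tested, AT5G48570 was the 1 called in HSFC1, beside 11.8% of all probe sets called in either direction. AT3G12050, AT4G02450, SGT1A and Fes1A changed by 0.17, -0.09, -0.19 and 0.38 there. Fes1A, which encodes a nucleotide exchange factor of Hsp70, was higher in cold, at 7.46 and 7.21 against 6.14 and 6.18 in warm wild type (1.18 ± 0.36, limma adjusted p = 0.0211), a call that was lost whenever 1 of those arrays was left out. The J-protein gene AT4G28480 was higher in cold by 1.01 ± 0.22 (limma adjusted p = 0.00177). AT1G11660, of the Hsp70 family, was higher in HSFC1 by 1.09 ± 0.21 (limma adjusted p = 0.00152), which did not pass with the spread of the compared groups alone (adjusted p = 0.0669). AT4G16660, of the same family, changed by 0.10 in HSFC1 and -0.15 in cold, neither of which passed.

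The small heat shock proteins, which hold unfolded proteins in solution, gave 7 of 9 genes called higher in HSFC1. Over all probe sets tested, 1060 of 15916 were called higher there. However, 4 of the 7 are those that passed the filter through the HSFC1 arrays alone, so this count is a description only. Of the other 5 genes, AT2G29500, AT5G37670 and AT2G19310 were higher, by 7.29, 5.77 and 1.37, and the call of AT2G19310 (limma adjusted p = 0.0328) held in 7 of 14 refits. AT1G52560, 1 of the 4, read 11.42 and 10.31 in HSFC1, against 2.45 and 2.46 in the lines' control, a level near the lowest signals of the array. In cold none of the 9 was higher and 3 were lower, where 2091 of the 15916 probe sets tested were lower. The 4 that passed through HSFC1 alone had means of at most 2.84 in warm wild type. That left them little room to fall. All 3 lower genes were among the other 5, so the share of the 9 is a description only. AT4G21870 read 3.90 and 4.60 in cold, against 8.40 and 8.39 in warm wild type (-4.15 ± 0.64, limma adjusted p = 9.2e-05). In HSFC1 it read 6.63 and 6.85, against 8.39 in both arrays of the lines' control, which did not pass (-1.65 ± 0.64, adjusted p = 0.104). Against the other lines it was lower in HSFC1 (-1.60 ± 0.47, limma adjusted p = 0.021). AT2G19310 and AT2G29500 were lower in cold, with changes of -1.64 and -0.93 and limma adjusted p-values of 0.00561 and 0.0408. The call of AT2G19310 was lost without the second warm array and with the lines' control as reference. The call of AT2G29500 held in none of the 4 fits without 1 array, and in 6 of 14 refits.

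The Pearson correlation of HSA32 with Hop3 across the 14 group means was 0.92 over all groups and 0.14 over the 13 groups without HSFC1. Hop2 and Hsp70-2 gave 0.30 over all groups and 0.83 without HSFC1. Hop2 and Hop3 gave 0.12 with HSFC1 and -0.83 without it. Hop3 and Hsp70-2 gave -0.79 and -0.72. These values describe 14 or 13 means that share array ranges and, in part, the same growth condition.

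The probe sets with the profile most like each gene were sought among 6433 whose group means spanned at least 1 on the log2 scale. For HSA32 they were AT1G72490 (r = 0.996 over 14 group means), ADPG1, a polygalacturonase (0.993), AT5G07330 (0.993) and AT1G72660 (0.992). Without HSFC1 the same probe sets gave 0.671, 0.152, 0.12 and -0.018, lower for each of them. Their group means were at most 2.4 outside HSFC1 and 4.95 to 10.22 in HSFC1, so they passed the filter through HSFC1 alone. A profile flat near the lowest signals with a peak in HSFC1 correlates highly with HSA32 by its shape. These r values, with and without HSFC1, are therefore descriptions only. For Hop3 the most alike were AT5G44440 (0.953), the mitochondrial small heat shock protein gene AT5G51440 (0.934), AT2G23110 (0.932) and AT1G73120 (0.932). They gave 0.788, 0.469, 0.444 and 0.741 without HSFC1. AT5G44440, AT5G51440 and AT2G23110 had group means below 4 in every group but HSFC1, so the same limit bears on them.

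For Hop2 the likeness was close to the same without HSFC1. AT1G10410, AT1G01940 (a cyclophilin-type protein), AT2G46600 and TRM28 gave 0.967, 0.938, 0.928 and 0.924 over all groups, and 0.958, 0.926, 0.908 and 0.909 without HSFC1. For Hsp70-2 they were AT1G63660 (GMP synthase, 0.925), AT5G43720 (0.91), AT4G28990 (0.908) and AT1G72730 (a DEAD-box helicase, 0.907). These gave 0.88, 0.915, 0.856 and 0.882 without HSFC1. By r without HSFC1, those like Hop2 ranked 3, 51, 113 and 111 among the 6433 probe sets, and those like Hsp70-2 ranked 25, 7, 71 and 22. Cold wild type, from the higher range of array medians, had the highest mean in every one of these profiles. The part of that range in these r values was not tested.

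**Figure D4:**
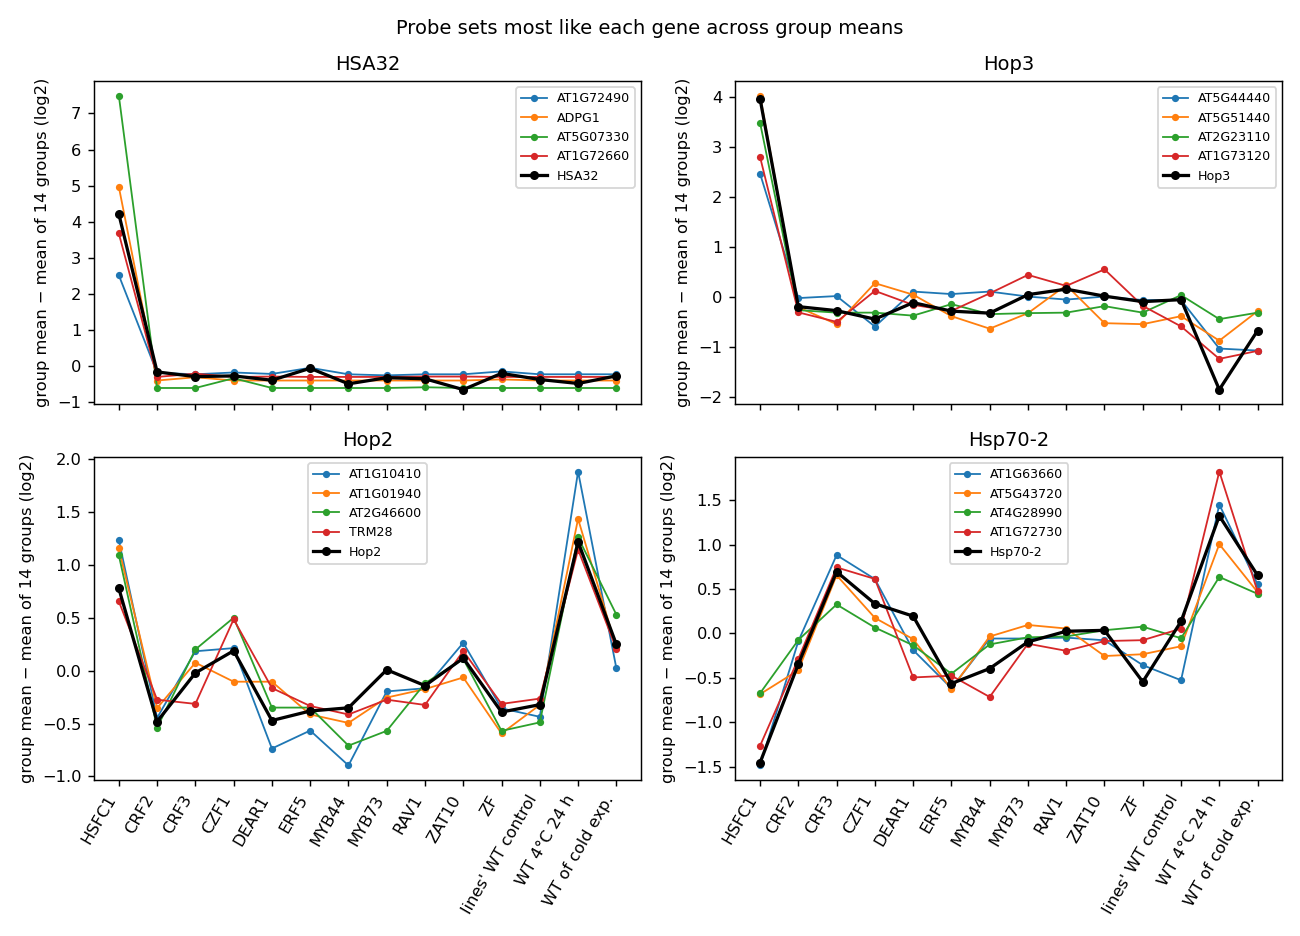
Group means of HSA32, Hop3, Hop2 and Hsp70-2 and of the 4 probe sets most like each, each profile shown as its difference from its own mean over the 14 groups (log2). The profiles like HSA32 and Hop3 peak in HSFC1, those like Hop2 are high in cold wild type, and those like Hsp70-2 are low in HSFC1.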

How the data were processed

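Biotin-labelled RNA was measured on 28 single-colour arrays. The authors deposited log2 signals, 1 value per probe set and array. The submitters' processing notes name GCRMA and limma, without versions or roles. No source used here says how the arrays were centred against each other. Depth has no meaning for arrays: 2 arrays a group limit the precision.

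Of 22810 probe sets, 64 controls were left out. The annotation gives 13513 probe sets 1 gene symbol, 503 several and 8730 none. Probe sets above 4 in at least 2 arrays (15916) were fitted in limma 3.58.1 (R 4.3.3) with 1 mean per group over all 28 arrays, with Benjamini-Hochberg adjustment over all of them. The fit was tested on simulated data. Log2 changes and folds were computed from group means.

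The genes described and the lists were chosen with earlier results of these data known. Named are these genes, list genes called in HSFC1 or cold, up to 3 others a list with the highest mean, and 4 probe sets by correlation. Levels are not compared between genes. Alternatives were other filters, normalizations, controls, replicate block, and arrays left out. Promoter and protein sequences were not analysed here.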

Additional observations from a re-analysis of the deposited data

Results flagged for a closer look

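The responses to HSFC1 overexpression and to 24 h of cold differed, by a limma test of the difference between both changes, for 3 of the 4 genes. The change in HSFC1 less the change in cold was 4.8 for HSA32, 5.2 for Hop3 and -2.27 for Hsp70-2 on the log2 scale, with limma adjusted p-values of 4.6e-10, 1.04e-08 and 0.00387. Both arrays of each HSFC1 and cold group lay on the side of their controls that the group's change gives, without overlap. For Hop2 the difference was 0.13 (adjusted p = 0.8).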

How the results depend on the processing

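For the 4 genes and the counts over the lists in HSFC1 and cold, no direction reversed in any refit. HSA32, Hop3 and Hop2 in HSFC1 and Hop2 in cold passed in all of them, and HSA32 in cold passed in none. For Hsp70-2 in HSFC1 the change ran from -1.77 to -1.41 with 1 array left out, and was lost at -1.41 without the first array of the lines' control. Hsp70-2 in cold passed without the CRF3 arrays (0.68), with only the groups compared (0.68), with the lines' control as reference (1.19) and with all 4 wild-type arrays at 22°C (0.93). Hop3 in cold was lost with only the groups compared (-1.18) and without the first cold array, with values of -1.67 to -0.70 over the fits without 1 array. The count of list genes lower in HSFC1, 1 as reported, was 2 without CRF3, 2 with only the groups compared, 0 to 1 with 1 array left out, 5 with warm wild type and 4 with all 4 wild-type arrays as reference. The count higher in cold, 5 as reported, was 11 with the lines' control and 9 with all 4 arrays. The count lower in cold, 5 as reported, was 2 to 5 with 1 array left out and 3 with the lines' control. The count higher in HSFC1 was 12 to 14 over 14 alternatives. References that use the other wild-type group cross the ranges of array medians. Over all probe sets tested, the lines' control minus warm wild type had a median change of -0.42. The cause of the moves listed here was not tested. With the replicate block HSA32, Hop3, Hop2 and Hsp70-2 in HSFC1 gave 4.58, 4.02, 1.11 and -1.59. No call of these genes in HSFC1 or cold changed. Deviations of same-numbered arrays correlated at -0.054 to 0.09, so no shared shift was seen. The labels do not state whether same-numbered arrays were grown or processed together. In the lines other than HSFC1 and in the comparisons of wild-type groups, 21 of 652 refits gained a call and 6 lost one. An alternative with several probe sets a gene was not run, since each gene had 1.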

Other observations

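AT1G56300, a J-domain protein gene, was higher in more of these groups than any of HSA32, Hop2, Hop3 and Hsp70-2. It read 8.23 and 7.94 in HSFC1, against 5.97 and 6.34 in the lines' control (log2 change 1.93 ± 0.34, limma adjusted p = 0.00088). In cold it read 9.34 and 9.48, against 6.59 and 7.79 in warm wild type (2.22 ± 0.34, limma adjusted p = 9.75e-05). ZAT10 arrays read 8.44 and 8.05, a change of 2.09 (limma adjusted p = 0.00172). These 3 calls held in all 14 alternatives. Against the other lines, however, HSFC1 did not pass (0.66 ± 0.25, limma adjusted p = 0.0733). The lines' control itself was lower than warm wild type (-1.04 ± 0.34, limma adjusted p = 0.0279), in a comparison across the ranges of array medians. That call was lost with quantile normalization and with median centring, and the change ran from -1.64 to -0.44 with 1 array left out. MYB44 (1.72), DEAR1 (1.69) and ZF (1.37) also passed, with limma adjusted p-values of 0.0156, 0.0466 and 0.0218, but each was lost in at least 3 of the 4 fits without 1 array. CZF1 minus warm wild type was 1.69 (limma adjusted p = 0.0191) and was lost without the first array of either group. The change in HSFC1 less that in cold was -0.29 ± 0.49 (adjusted p = 0.731).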
